A study of Drosophila melanogaster with 75 samples.

Results

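Heat shock proteins and their co-chaperones were followed in the heads of male Drosophila melanogaster after 20 min of a courtship test, in single pools of flies. The group was 10 genes: the small heat shock proteins Hsp22, Hsp23, Hsp26, Hsp27 and Hsp67Bc, the Hsp70 family members Hsp68 and Hsc70-4, the Hsp90 protein Hsp83, the J-domain protein DnaJ-1 and the BAG-family co-chaperone stv (starvin). Members were chosen by gene symbol in the platform annotation of the arrays. Of the 10 genes, 6 had a probe set annotated to them alone (Hsp26, Hsp27, Hsp68, Hsc70-4, DnaJ-1 and stv), and all 6 were bright enough to be tested. Hsp22 was represented only by probe sets shared with CG4456, so it is described apart and not counted, and Hsp23, Hsp67Bc and Hsp83 were not named in the annotation used here and were not analysed here. Over the whole series 11982 genes had a probe set of their own, of which 7313 were tested.

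RNA came from isogenized Canton-S flies, a laboratory wild type, as males aged 5 days, raised at 25 °C and housed singly from the day before the test. Each of the 15 arrays held RNA from the heads of 1 pool of 20 males, with 5 pools in each of 3 arms. Males of the courtship arm were watched for 20 min with a cauterized virgin female. The male arm carries the same treatment label as the courtship arm although its titles set it apart, so what those males met is not settled by the labels. Control males met no female in the same 20 min, per their treatment label, while the protocol text of all arms describes the test with a female. Labels of all 3 arms, controls included, state that the males collected had courted for 70% of the observation. Values are log2 of the GC-RMA intensity computed by the authors in R, and p-values measure the spread between pools.

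Heat shock proteins are chaperones: they bind unfolded proteins and keep them from clumping. Small heat shock proteins hold such proteins without ATP, whereas Hsp70 proteins fold them in an ATP cycle that J-domain proteins start and BAG-domain proteins help to end. Some members are made in most cells at all times, such as Hsc70-4, and others are switched on within minutes of heat or other stress by the heat shock factor Hsf, such as Hsp22, Hsp26, Hsp68 and the Hsp70 genes.

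Several arrays stood apart. Control array 5 exceeded every other array by over 1 log2 unit in 13 of 8926 tested probe sets, against 0 to 2 in each other array. Male arrays 1 and 5 and control array 1 had the highest ratio of 3' to 5' signal, a sign of shortened RNA, with a log2 mean over 5 pairs of control probe sets of 3.99, 3.26 and 3.54, against 2.50 to 2.90 in the other 12 arrays. Control array 5 was not among these, at 2.68. Markers of head cells were bright: the mean of the photoreceptor markers Arr2 and trp lay between 14.58 and 14.97 in all arrays. Of 5 genes listed for the flight muscle of the thorax, Prm, TpnC41C and Act88F were tested, with means over the 15 arrays of 11.70, 10.69 and 6.65. TpnC4 and fln were too dim, at 2.38 and 3.73. Whether the tested genes mark that muscle alone was not tested, so their signal does not show thorax tissue in the pools. In heads, fewer cells of a type and less RNA per cell cannot be told apart.

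DnaJ-1, the J-domain partner of Hsp70, was the one member that differed between arms past the threshold. Its value was 11.38, 11.56, 11.47, 11.57 and 11.01 in the male pools, against 11.78, 11.86, 11.83, 11.75 and 12.04 in the control pools. Every male pool lay below every control pool. The male arm averaged 11.40 ± 0.23 and the control arm 11.85 ± 0.11 (SD, n = 5 each), a log2 difference of -0.45 ± 0.10 (SE) or 1.37-fold (limma over all 15 arrays, adjusted p = 0.0386). Members were called at an adjusted p under 0.05, and 1 of 6 passed in male against control, where 3.66% of all 8926 tested probe sets passed in either direction and 1.49% passed as lower. All male pools lay below all control pools in 3.73% of tested probe sets.

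**Figure D1:**
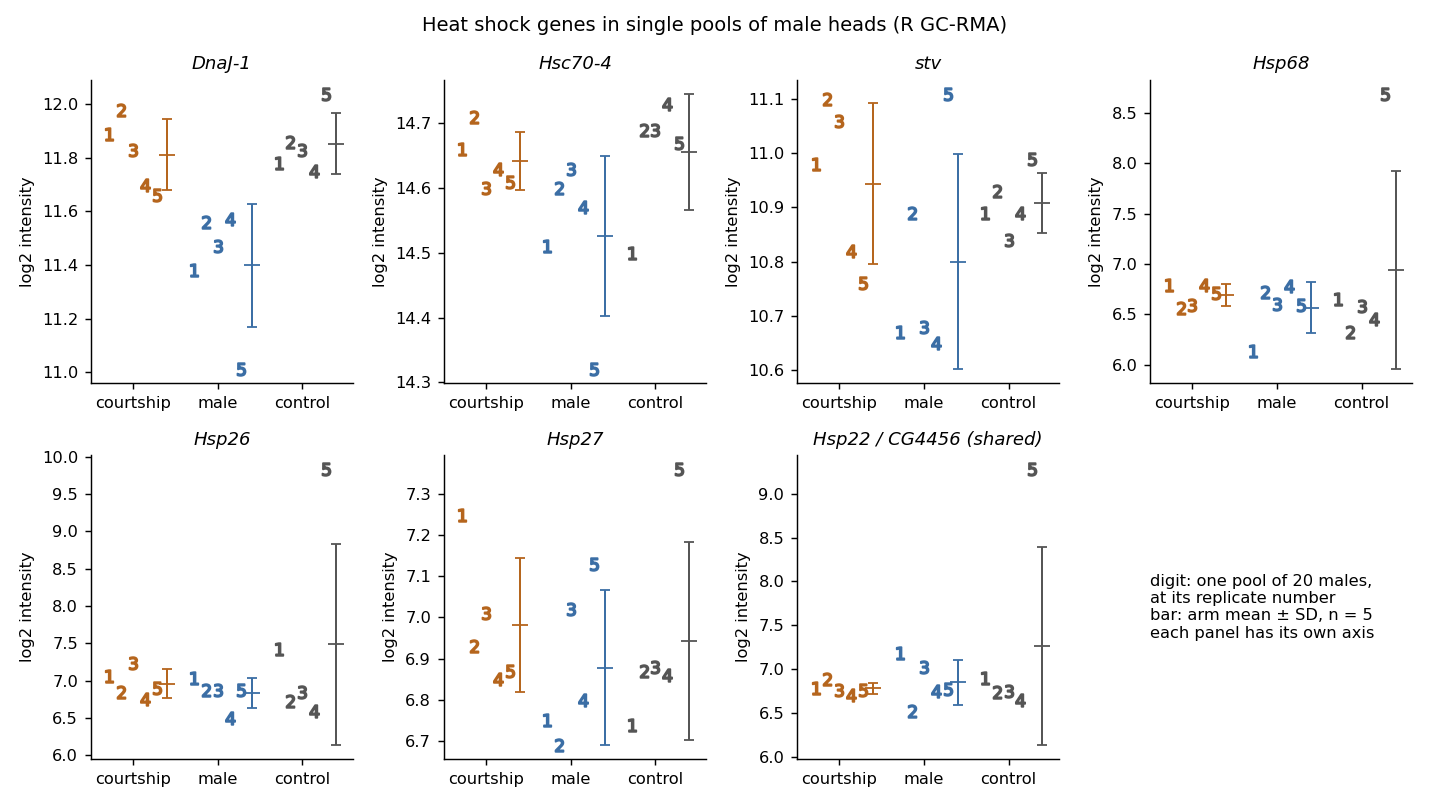
Log2 GC-RMA intensity (vertical axes, 1 scale per panel) of the 6 members with a probe set of their own and of the probe set shared by Hsp22 and CG4456, in each of 15 pools by arm. Digits are pools at their replicate number and bars are arm means with SD (n = 5). DnaJ-1 is lower in every male pool than in every courtship or control pool, and Hsp26, Hsp68 and the shared probe set are high in control pool 5.

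In the courtship arm DnaJ-1 read 11.89, 11.98, 11.83, 11.70 and 11.66, a mean of 11.81 ± 0.13 (SD, n = 5). These values overlapped those of the control arm, and the difference was -0.04 ± 0.10 (SE, limma adjusted p = 0.999). Every courtship pool lay above every male pool, as 0.818% of tested probe sets did, and the difference of courtship over male was 0.41 ± 0.10 (SE, limma unadjusted p = 0.00137, adjusted p = 0.325). That comparison did not pass the threshold, and it shares the male pools with male against control. By arm, the order of the DnaJ-1 means was control, courtship and male, and control and courtship did not differ beyond their spread.

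The male pool with the lowest DnaJ-1, pool 5 at 11.01, was one of the pools with a high 3' to 5' ratio, and pool 1, the other, was next lowest at 11.38. Male pools 2, 3 and 4, with ratios of 2.50 to 2.75, read 11.47 to 11.57, below all courtship and control pools. Without male arrays 1 and 5 the difference of male over control was -0.32 ± 0.09 (SE) and the call was lost (limma adjusted p = 0.120), as it was for all other probe sets of that comparison, with 0 called and 1962 at an unadjusted p under 0.05. With the ratio as a covariate it was -0.43 ± 0.10 (limma adjusted p = 0.0295). Control pool 1, with a ratio of 3.54, had a DnaJ-1 value of 11.78, within the range of the other control pools.

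The call was a narrow one. With 1 array left out at a time, DnaJ-1 stayed past the threshold in 5 of 15 fits, and the difference ranged between -0.50 and -0.36 with limma adjusted p between 0.0233 and 0.107. The call was lost without any 1 of control arrays 2, 3, 4 and 5 (limma adjusted p = 0.107, 0.0698, 0.0927 and 0.0602), male arrays 1, 2 and 5 (0.05, which is above the threshold before rounding, 0.0661 and 0.0821), or courtship arrays 1, 3 and 4 (0.0547, 0.0545 and 0.0526). The last of these lie outside the comparison and enter it through the shared estimate of the spread. With the code letter (the opening letter of each sample's code) as a block the difference was -0.52 ± 0.15 (SE) and the call was lost too (limma adjusted p = 0.0585). Letters B, E and J each stood on 1 array only (male 2, male 3 and courtship 5), so these arrays add nothing to the differences in that fit.

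Markers of cell types were also compared between the male and control pools. In that comparison 3046 of all 8926 tested probe sets had an unadjusted p under 0.05 (limma). All 6 neuronal markers were lower in the male arm, with a median difference of -0.55 and none past the adjusted threshold in limma (3 at an unadjusted p under 0.05). Their mean log2 value ran between 6.49 and 8.07 in the male pools and between 7.74 and 8.67 in the control pools. Muscle markers were lower in 8 of 8 cases (median -0.34, 5 at an unadjusted p under 0.05, 0 adjusted in limma), both photoreceptor markers were lower (median -0.21, trp past the adjusted threshold and Arr2 not), and 6 of 7 glial markers (median 0.12, 2 at an unadjusted p under 0.05) and 6 of 7 markers of the head fat body (median 0.16, 3 at an unadjusted p under 0.05) were higher, with 0 past the adjusted threshold in limma. Tested genes of the flight muscle list were lower in 3 of 3 cases (median -0.09) and haemocyte markers in 2 of 4 (median 0.15), with 0 at an unadjusted p under 0.05 in limma. Male pools 2, 3 and 4 had neuronal means of 7.91, 8.07 and 7.84, inside the courtship range of 7.79 to 8.60, with DnaJ-1 below every courtship pool. Photoreceptor means, like DnaJ-1, lay lower in every male pool (14.579 to 14.755) than in every control pool (14.846 to 14.967). In the courtship pools they ran between 14.75 and 14.964, so the overlap with the male pools was slight. Muscle means were 10.42 to 11.06 in male, 10.84 to 11.19 in courtship and 10.93 to 11.15 in control pools. The part of cell types and RNA quality in the DnaJ-1 difference was not tested further.

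**Figure D2:**
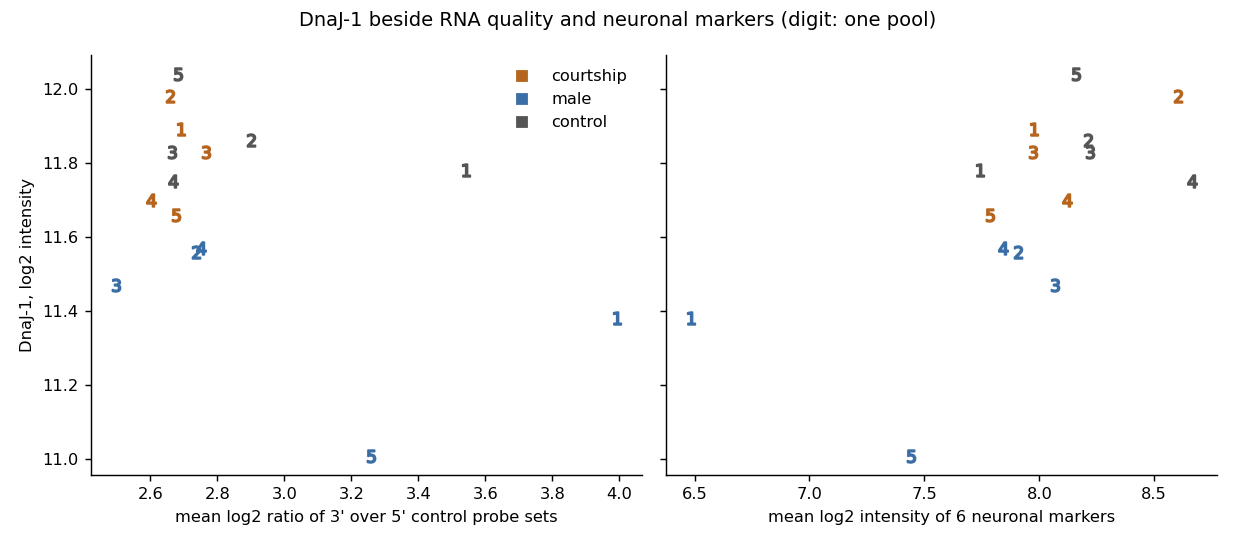
DnaJ-1 log2 intensity (vertical axis) in the 15 pools against the log2 ratio of 3' to 5' control probe sets, averaged over 5 pairs (left) and against the mean log2 intensity of 6 neuronal markers (right). Digits are pools, coloured by arm. Male pools 1 and 5 have high ratios and low neuronal means, and male pools 2, 3 and 4 lie low on DnaJ-1 with ratios of 2.50 to 2.75.

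The partners of DnaJ-1 in the Hsp70 cycle did not pass the threshold. Hsc70-4, the constitutive Hsp70 protein of the cytosol, read 14.51, 14.60, 14.63, 14.57 and 14.32 in the male pools, against 14.50, 14.69, 14.69, 14.73 and 14.67 in the control pools. The arms overlapped, and male pool 5 and control pool 1 were the lowest of each. The male difference was -0.13 ± 0.07 (SE, limma adjusted p = 0.178), with a 95% confidence interval of -0.27 to 0.01. In the courtship pools Hsc70-4 lay between 14.60 and 14.71, and its difference from control was -0.01 ± 0.07 (SE, 95% confidence interval -0.16 to 0.13).

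Starvin, which binds Hsp70 proteins through its BAG domain and takes part in chaperone-assisted autophagy in muscle, read 10.67, 10.89, 10.68, 10.65 and 11.11 in the male pools. Control pools read 10.89, 10.93, 10.84, 10.89 and 10.99. The male arm held both the lowest and the highest value of all 15 pools, and male pool 5, lowest for DnaJ-1 and Hsc70-4, was highest for stv. In the authors' MAS5 values courtship pool 2 was highest for stv (11.45, male pool 5 at 11.448). Control pool 1 was highest in their dChip PM (10.997, male pool 5 at 10.841) and dChip PM-MM values (10.727, male pool 5 at 10.543). The male difference of stv was -0.11 ± 0.09 (SE, limma adjusted p = 0.416). Courtship pools lay between 10.76 and 11.10, and the courtship difference from control was 0.04 ± 0.09 (SE, 95% confidence interval -0.16 to 0.23).

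Hsp26, Hsp68 and the tested probe sets of Hsp22 and of the Hsp70 genes were high in 1 pool, that of control array 5. Hsp26, a small heat shock protein of the cytosol, read 7.06, 6.85, 7.24, 6.76 and 6.90 in the courtship pools. In the male pools it was 7.04, 6.88, 6.87, 6.50 and 6.87. In the control pools it was 7.42, 6.73, 6.85, 6.60 and 9.83. Control pool 5 stood 2.93 log2 units, or 7.61-fold, above the mean of the other 4 control pools, and the other 14 pools of all arms lay between 6.50 and 7.42.

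Hsp68, a stress-induced Hsp70 protein, had the same high pool. It read 6.79, 6.56, 6.59, 6.79 and 6.71 in the courtship pools and 6.14, 6.72, 6.60, 6.78 and 6.59 in the male pools, against 6.65, 6.33, 6.58, 6.45 and 8.69 in the control pools. Control pool 5 was 2.19 log2 units or 4.57-fold above the mean of its 4 arm mates. Hsp27, a small heat shock protein known from cell nuclei, was also highest of all pools in control pool 5, at 7.36 against 6.74 to 6.88 in the other controls, but courtship pool 1 came close at 7.25.

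Hsp22, a small heat shock protein of mitochondria, could be read only together with CG4456. The tested probe set of these genes gave 6.71 to 6.89 in the courtship pools and 6.52 to 7.18 in the male pools. In controls it gave 6.90, 6.74, 6.75, 6.65 and 9.28, so pool 5 again stood apart, by 2.52 log2 units or 5.74-fold. Their other probe set was dim and not tested (mean of 2.27 over the 15 arrays). Which of the 2 genes gave the signal cannot be told from these probe sets.

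Hsp70 genes, the classic heat-induced chaperones, were covered by 3 tested probe sets whose near-identical copies cannot be separated, and 2 further ones, 1 of them also shared with CG31343, were dim and not tested. The probe set of Hsp70Aa and Hsp70Ab was at 9.75 in control pool 5, against 5.72 to 6.75 in the other control pools, a 10.8-fold gap to their mean. That of Hsp70Ba, Hsp70Bb, Hsp70Bbb and Hsp70Bc was at 10.09, against 6.25 to 7.40, a 9.70-fold gap. The probe set of Hsp70Bb and Hsp70Bc was at 6.98, against 4.33 to 4.41, a 6.16-fold gap. Across courtship and male pools the 3 probe sets stayed at or below 7.17, 7.24 and 4.62.

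**Figure D3:**
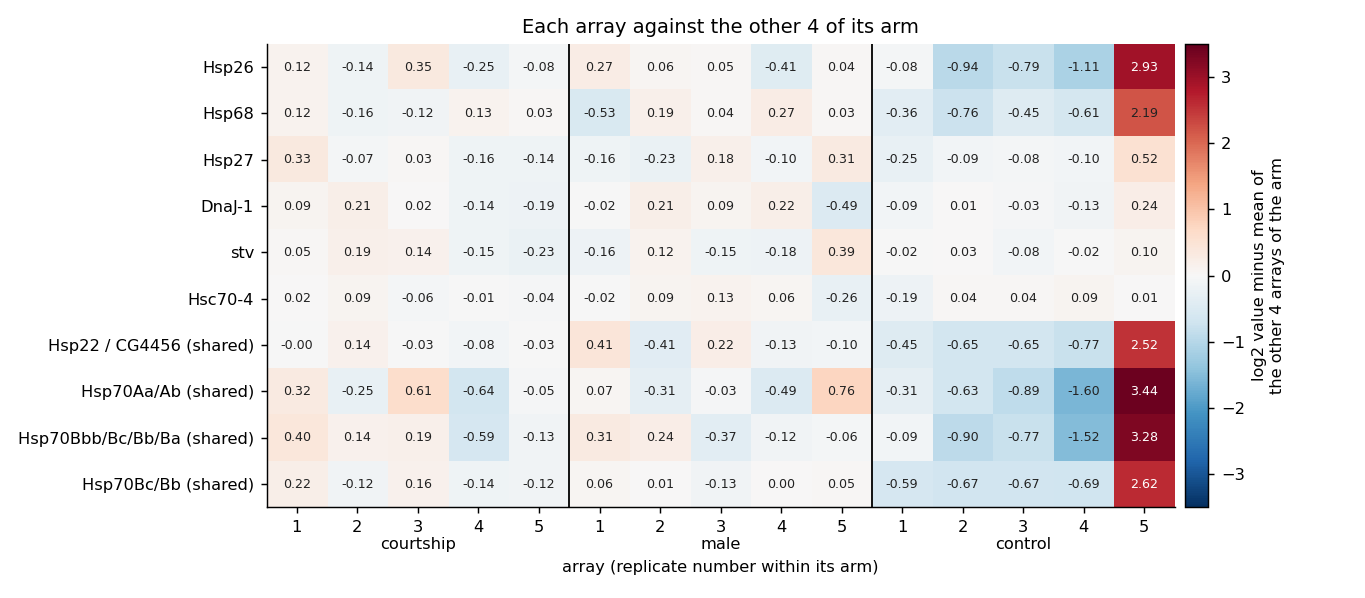
Log2 value of each array minus the mean of the other 4 arrays of its arm (colour and printed value), for 10 heat shock probe sets (rows) and 15 arrays (columns, by arm and replicate number). Control array 5 is 2.19 to 3.44 above its arm mates in 6 rows, and the negative values of control arrays 1 to 4 in those rows reflect that their comparison mean includes array 5.

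Of the 13 probe sets in which control array 5 exceeded every other array by over 1 log2 unit, 6 were heat shock probe sets (Hsp26, Hsp68, the Hsp22 and CG4456 probe set and the 3 of Hsp70). The other 7 were those of CG7763, CG11413, CG3604, Pvf2, CG30273 and Tsp42Ed and 1 shared by CG14907 and Mettl4. Ranked over all 8926 tested probe sets by the excess of control array 5 over the other 4 controls, the 3 Hsp70 probe sets stood at ranks 3, 4 and 8, Hsp26 at 5, the Hsp22 probe set at 9 and Hsp68 at 13. Hsp27 stood at 184, DnaJ-1 at 707 (excess 0.24), stv at 1650 and Hsc70-4 at 2905 (excess 0.01). The RNA of Hsf was at 10.38 in control array 5, beside 10.39 to 10.54 in the other control pools. Activity of the Hsf protein was not measured.

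Marker lists did not set control pool 5 apart in the same way. Its mean log2 value lay inside the range of the other 4 controls for neurons, muscle, haemocytes and head fat body. It lay outside that range for glia (10.70, others 10.28 to 10.54), flight muscle (9.57, others 9.66 to 9.87) and photoreceptors (14.846, others 14.852 to 14.967). The 3' to 5' ratio of control array 5 (2.68) was in the range of the courtship arrays. Its code carries the letter H, shared with courtship pool 4 and male pool 5, in which Hsp26 was 6.76 and 6.87.

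The differences of Hsp26, Hsp68 and the Hsp22 probe set from the control arm rested on control pool 5. In courtship against control, Hsp26 differed by -0.53 ± 0.46 (SE), Hsp68 by -0.25 ± 0.34 and the Hsp22 probe set by -0.48 ± 0.39, each with a limma adjusted p of 0.999. Without control array 5 the same differences were 0.06 ± 0.16, 0.19 ± 0.12 and 0.02 ± 0.11, with the sign turned in all 3 and adjusted p of 0.994 to 0.997. In male against control they were -0.66 ± 0.46 (limma adjusted p = 0.314), -0.38 ± 0.34 (0.442) and -0.41 ± 0.39 (0.455) with all arrays. Without control array 5 they were -0.07 ± 0.16 (limma adjusted p = 0.772), 0.06 ± 0.12 (0.733) and 0.09 ± 0.11 (0.587).

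**Figure D4:**
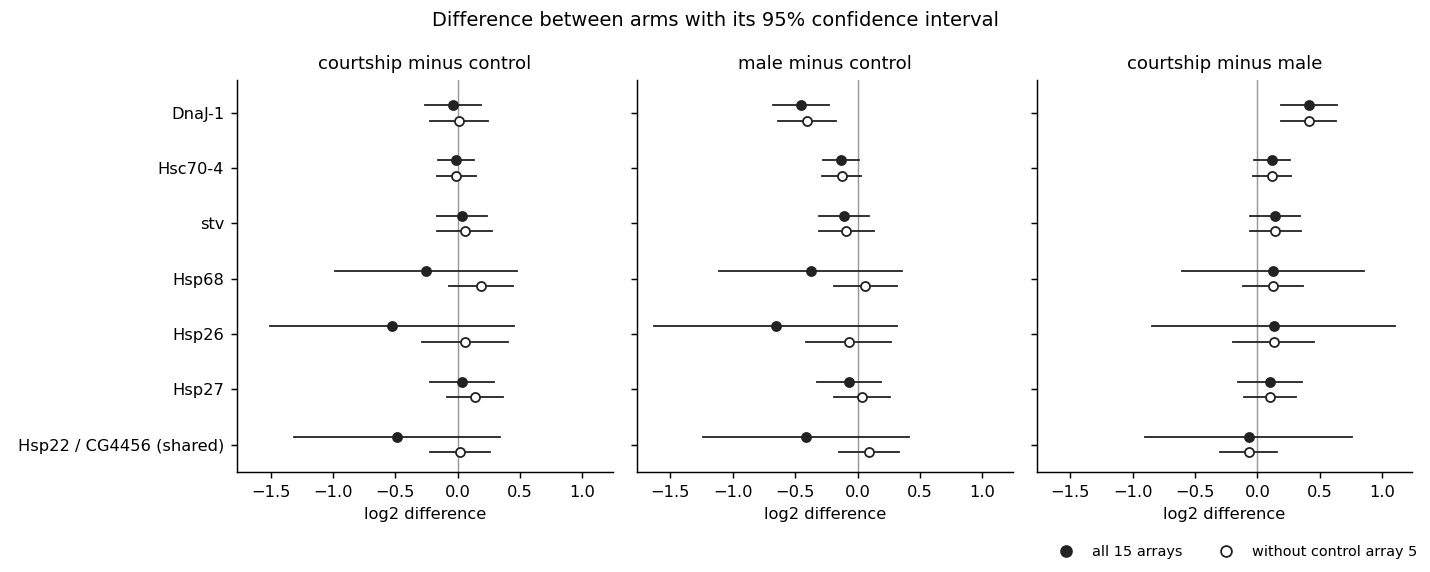
Log2 difference between arms (horizontal axis) with its 95% confidence interval from limma for 7 probe sets in 3 comparisons, over all 15 arrays (filled) and without control array 5 (open). Without that array the intervals of Hsp26, Hsp68 and the Hsp22 probe set are narrower in all 3 comparisons, their centres in the 2 comparisons with control lie between -0.07 and 0.19, their courtship minus male centres are the same, and DnaJ-1 is below 0 in male minus control in both fits.

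In courtship against control 0 of 6 members passed, and 0% of the 8926 tested probe sets did (limma, 255 at an unadjusted p under 0.05, none of them a member). Over the authors' other processings and the other settings tried, that comparison gave 0 to 12 calls over all probe sets and 0 among the members. The median member difference was -0.03, or 0.06 without control array 5, beside a median of 0.01 over all tested probe sets. Hsp27 differed by 0.03 ± 0.12 (SE), with a 95% confidence interval of -0.22 to 0.29. For Hsc70-4, DnaJ-1, stv and Hsp27 the intervals reached no further than 0.29 log2 units from 0, and for Hsp26 the interval reached from -1.50 to 0.45.

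In male against control all 6 members had lower means in the male arm, with a median difference of -0.25, or -0.08 without control array 5, against 0.02 over all tested probe sets. Of all tested probe sets 52.9% were higher in mean in the male arm. Without control array 5, Hsp27 (0.04) and Hsp68 (0.06) were higher in the male arm too. With all arrays no member beyond DnaJ-1 passed, and Hsp27 differed by -0.07 ± 0.12 (SE, limma adjusted p = 0.708). In courtship against male 0 of 6 passed, beside 0% of all tested probe sets (limma, 1354 at an unadjusted p under 0.05, DnaJ-1 among them). All 6 members were higher in the courtship arm, with a median difference of 0.13 beside -0.01 over all tested probe sets, of which 48.1% were higher. These comparisons share arms, so their directions are not separate observations.

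Both patterns were read in each of the authors' 5 processings of the arrays. DnaJ-1 was lower in every male pool than in every control and every courtship pool in all 5. Its male difference from control was -0.45 in the GeneSpring GC-RMA values, -0.37 in MAS5, -0.39 in dChip PM and -0.41 in dChip PM-MM, with limma adjusted p of 0.0342, 0.0467, 0.0344 and 0.051, the last not past the threshold. The excess of control pool 5 over its arm mates was 1.94 to 2.93 for Hsp26, 1.17 to 2.19 for Hsp68 and 1.92 to 2.55 for the Hsp22 probe set.

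**Figure D5:**
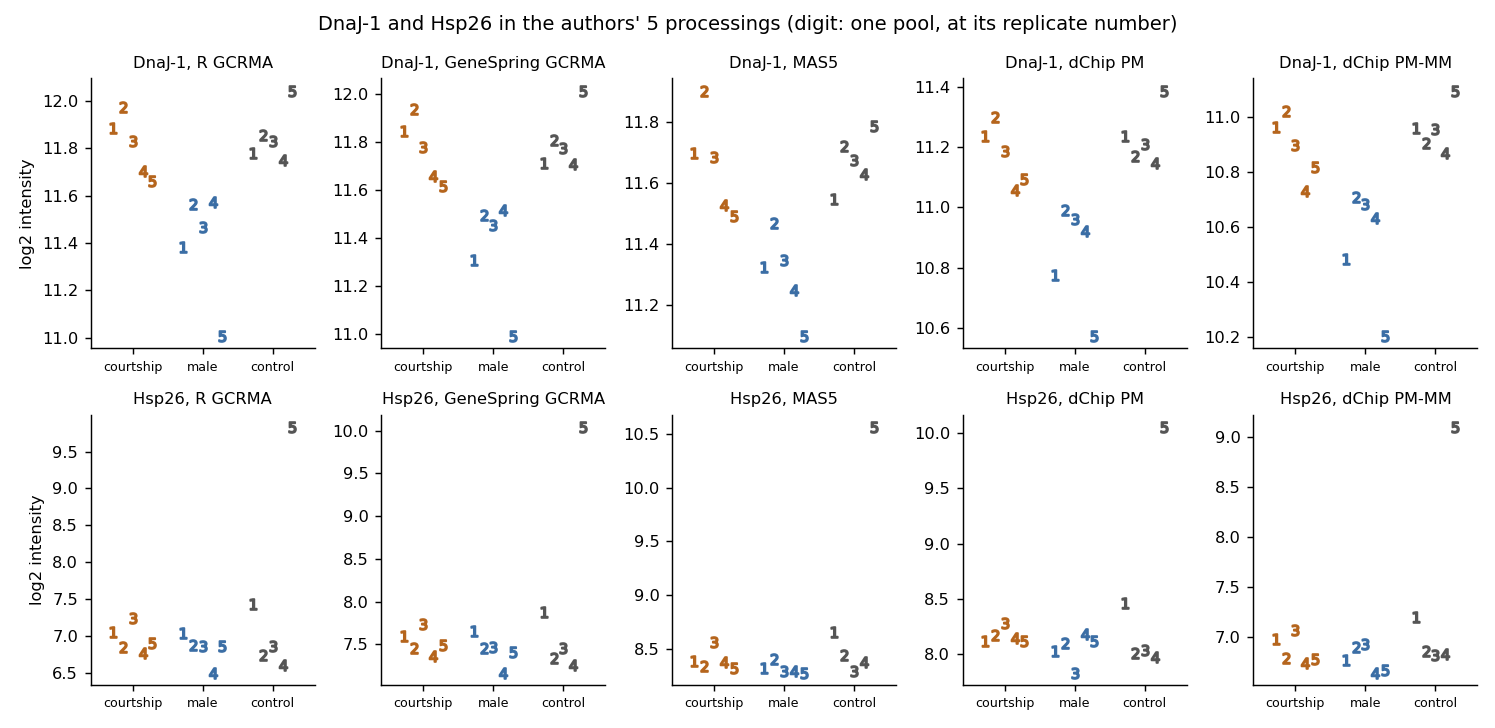
Log2 intensity of DnaJ-1 (top) and Hsp26 (bottom) by arm in the authors' 5 processings (columns), each panel on its own scale. Digits are pools at their replicate number. In each processing all 5 male pools are below all courtship and control pools for DnaJ-1, and control pool 5 is above all others for Hsp26.

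Other genes of the chaperone and stress systems were read from 8 lists, which held 93 genes with a probe set and 65 tested ones besides the members, each read by its brightest probe set. None passed in any of the 3 comparisons (limma, with 13 at an unadjusted p under 0.05 in male against control, 1 in courtship against control and 4 in courtship against male). Of all 8926 tested probe sets, 3046, 255 and 1354 had an unadjusted p under 0.05 in those comparisons (limma). Under other settings 0 to 9 of their probe sets passed in male against control, the most with array weights. With array weights 1873 of all 8926 tested probe sets passed in that comparison. In courtship against male 1 of their probe sets passed with the code letter as a block, where 169 of all tested probe sets passed. The median difference of the listed genes was 0.01 in male against control, 0.04 in courtship against control and 0.03 in courtship against male. Medians over all tested probe sets were 0.02, 0.01 and -0.01.

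Of the 17 other J-domain proteins tested, 7 were higher and 10 lower in the male arm, with a median of -0.03. Droj2, a cytosolic J-domain protein, was at 13.39 ± 0.27 in male pools and 13.72 ± 0.08 in control pools (SD, n = 5 each), a difference of -0.33 ± 0.11 (SE, limma adjusted p = 0.0707). Its highest male value, 13.56, was below its lowest control value, 13.57, an order seen in 3.73% of all tested probe sets. CG14650 gave -0.33 ± 0.12 (SE, limma adjusted p = 0.0804) in the same comparison.

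Among 6 other Hsp70 co-chaperones the smallest p belonged to Stip1, which links Hsp70 to Hsp90. It was at 10.38 ± 0.06 in courtship pools and 10.04 ± 0.26 in male pools, a difference of 0.34 ± 0.11 (SE, limma adjusted p = 0.325). Roe1, a nucleotide exchange factor of mitochondria, was 0.39 ± 0.16 higher in mean in male than in control pools (limma adjusted p = 0.105). Of 5 other Hsp70-like proteins, Hsp110 gave 0.24 ± 0.10 in courtship over male (limma adjusted p = 0.325), and Grp170 of the endoplasmic reticulum gave 0.21 ± 0.12 in courtship over control (adjusted p = 0.999).

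All 10 chaperonin subunits and co-chaperonins tested had higher means in courtship than in control pools, with a median of 0.05 and none past the threshold (limma, 0 at an unadjusted p under 0.05). Of all tested probe sets 54.4% had higher means in courtship than in control pools. CCT4, a subunit of the cytosolic chaperonin, gave 0.10 ± 0.06 (SE) there. CG11267, the Hsp10-type co-chaperonin, gave 0.23 ± 0.10 in male over control (limma adjusted p = 0.128). Of 10 genes of the Hsp90 system, 8 had higher means in courtship and 8 in male pools than in control pools. CG1416, related to the Hsp90 activator Aha1, gave 0.17 ± 0.07 in courtship over control (limma adjusted p = 0.999), and Cdc37, which brings kinases to Hsp90, gave 0.17 ± 0.07 in male over control (adjusted p = 0.109).

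Among small heat shock proteins outside the group, l(2)efl was at 12.04 in control pool 5 by its brighter probe set, against 11.58 to 12.12 in the other controls. By its other tested probe set, control pool 5 was at 9.40, above the 8.84 to 9.14 of the other controls by 0.37 over their mean (rank 322), and male pools reached 9.43. Neither probe set passed in any comparison. CG7409 gave 0.19 ± 0.08 (SE, limma adjusted p = 0.127) and CG4461 gave 0.10 ± 0.08 (adjusted p = 0.396) in male over control. Hsf was at 10.34 ± 0.16 in male pools and 10.46 ± 0.07 in control pools (SD, n = 5 each), a difference of -0.12 ± 0.07 (SE, limma adjusted p = 0.248). Of 13 other stress genes, the mitochondrial superoxide dismutase Sod2 gave 0.24 ± 0.07 (SE, limma adjusted p = 0.0577) and the glutathione transferase GstD1 0.25 ± 0.08 (adjusted p = 0.0679) in male over control. Every male pool of Sod2 (12.19 to 12.47) lay above every control pool (11.96 to 12.18), but Sod2 was named for having the smallest p of its list. The share of all tested probe sets with that order was not counted.

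Genes most like the members over the 15 pools were sought by Pearson's r with the mean centred value of the 6 members. That mean was 0.94 in control pool 5 and between -0.24 and 0.11 in the other 14. The 8 most alike were cv-2 (r = 0.894), rdog (0.866), ImpL2 (0.836), CG33158 (0.794), loco (0.792), CG30273 (0.792), CG11413 (0.767) and CG7763 (0.762). All 8 were highest in control pool 5 as well, and ImpL2, a secreted insulin-binding protein, was at 11.06 there and at 9.97 to 10.45 in the others. Without control pool 5 the 8 most alike over 14 pools were GAPcenA (0.874), atms (0.850), tn (0.849), smid (0.846), Kap-alpha3 (0.837), Dll (0.805), Atg101 (0.785) and Usp47 (0.784), so none of the first 8 was among them. The points share arrays, normalization and 1 extreme pool, and the r values are descriptions only.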

How the data were processed

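Per the labels, RNA of 15 pools of male heads was hybridised to Affymetrix Drosophila arrays, and the authors deposited 75 columns of linear intensity, 15 arrays in 5 processings (dChip PM, dChip PM-MM, MAS5, and GC-RMA in R and in GeneSpring). GCOS 1.2 and GCRMA are named in the submitters' processing notes, and versions of the other programs were not given in the sources used here. The GC-RMA method pulls dim probe sets together, so small differences of dim probe sets are compressed. Log2 of the deposited R GC-RMA values was used, and 746 PM-MM values below 1 were set to 1. After leaving out 183 control probe sets, the 8926 of 18769 with a mean log2 of at least 4 were tested with limma 3.58.1 (R 4.3.3; lmFit, eBayes, 1 mean per arm over 15 arrays, 12 residual degrees of freedom) and Benjamini-Hochberg adjustment within each comparison. All p-values are two-sided. The number of arrays limits the precision.

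The platform annotation names 1 gene for 13647 probe sets, several for 402 and none for 4720. A RefSeq gene table was used for names only. Members, lists, the model and the settings tried were chosen with earlier results of these data known. Named genes were all members, Hsf, Hsp70 genes and l(2)efl, every listed gene past the threshold or otherwise the 2 of each list with the smallest p, and 8 genes by likeness. Control array 5 and its further excesses were described after the values were seen. Alternatives were the other processings, filters, scalings, blocks, a 3' to 5' covariate, weights per array, other variance models, a looser threshold of 0.10, and arrays left out. Summaries and plots used matplotlib 3.10.9, numpy 2.4.6 and pandas 2.3.3 in Python 3.11.15. Labels give all arms the replicate numbers 1 to 5 without saying that a number marks a shared batch.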

Additional observations from a re-analysis of the deposited data

Results flagged for a closer look

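In 39 groups of 5 pools (13 heat shock probe sets in 3 arms), 8 groups held a pool whose gap to its nearest neighbour, as a share of the whole range, passed Dixon's 95% limit of 0.71 for 5 samples. Chance flags about 1 group in 20, and groups are not independent, since probe sets share pools. Of the 8, 6 were high values in control pool 5: Hsp26 with a share of 0.744 (9.83, others 6.60 to 7.42), Hsp68 with 0.865 (8.69, others 6.33 to 6.65), the Hsp22 and CG4456 probe set with 0.903 (9.28, others 6.65 to 6.90), the Hsp70Bb and Hsp70Bc probe set with 0.969 (6.98, others 4.33 to 4.41), the Hsp70Aa and Hsp70Ab probe set with 0.744 (9.75, others 5.72 to 6.75) and Hsp27 with 0.773 (7.36, others 6.74 to 6.88).

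The other two were low values. Hsc70-4 was 14.50 in control pool 1, against 14.67 to 14.73 in the other 4, with a share of 0.731, and that pool had a 3' to 5' ratio of 3.54. Hsf was 10.06 in male pool 5, against 10.37 to 10.47 in the other 4, with a share of 0.743, and that pool had a ratio of 3.26. The part of RNA quality in these values was not tested.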

How the results depend on the processing

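The count of members called in courtship against control and in courtship against male was 0 in all 33 alternatives. In male against control it was 1, DnaJ-1, and it was 0 with the dChip PM-MM values (0), without the filter (0), with the code letter as a block (0, DnaJ-1 at -0.52), without male arrays 1 and 5 (0), and when control array 1 (0) or control array 5 (0, chosen after seeing the data) was left out with them. Leaving out 1 array at a time gave 0 to 1. Over all probe sets the 33 alternatives gave 0 to 2083 calls in male against control, the most at the threshold of 0.10. DnaJ-1 kept its sign in all 33 alternatives, between -0.52 and -0.27, with limma adjusted p of 0.0102 to 0.120. Without the filter 18769 probe sets share the adjustment and its difference is the same, at an adjusted p of 0.0946. The cause of the other losses was not tested. With a replicate block the members called were 0, 1 and 0, and DnaJ-1 was at -0.45 (limma adjusted p = 0.0258). The count over all probe sets was 1690 with the replicate block in male against control, against 327 without it. The labels state no batch behind the numbers. Deviations of same-numbered pools from their arm means had correlations of -0.29 to 0.47, not all above 0.1, and 6 of 15 arrays correlated best with an array of their own number, a hint from the data and not the design. No change of sign concerned a called difference. With 5 pools an arm, the 95% confidence intervals in courtship against control reached from -0.16 to 0.13 for Hsc70-4 and from -1.50 to 0.45 for Hsp26, so smaller differences could not be seen.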
